A study of Mus musculus with 12 samples.

Results

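The FOS and JUN genes encode the subunits of AP-1, a transcription factor that forms as a pair of leucine-zipper proteins on DNA. They were taken by symbol from the count files: 4 FOS genes (Fos, Fosb, Fosl1 and Fosl2) and 3 JUN genes (Jun, Junb and Jund), 7 of 49671 genes in all, and each was detected in every library and passed the filter on low counts. The libraries came from NIH 3T3 cells, an immortalized mouse fibroblast line, in 4 groups of 3. The labels number the libraries consecutively across the groups and give no replicate number. Replicates 1 to 3 of a group are numbered here in that order. Cells received a control siRNA or an siRNA against Lap2, which targets the membrane-anchored and the nucleoplasmic forms of the protein together. They were kept in 0.3% FBS (starved) or were given 15% FBS for 45 min after starvation (stimulated), and directional libraries were made from the RNA after ribosomal RNA removal. A single cell line was used, and nothing in the sources says that the 3 libraries of a group came from separate experiments, so the p-values measure the spread between these libraries, which may be technical.

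JUN proteins pair with each other or with a FOS protein, whereas FOS proteins need a JUN partner. Several of the genes are immediate early genes, which quiescent fibroblasts switch on within minutes of serum without new protein synthesis. Fos, for instance, is a textbook target of SRF and its ternary complex factors, which act on its promoter downstream of the MAP kinase cascade, while Jun is activated in part by its own product. Fos and Jun are strong activators, Fosl1 (Fra-1) and Fosl2 (Fra-2) lack the strong activation domain of Fos, Junb is weaker than Jun at many sites, and Jund is known for being made in resting cells. Lap2 is encoded by Tmpo and binds lamins at the nuclear periphery or in the nucleoplasm. The study asked how its loss changes gene expression in starved and stimulated cells, and that question is put here to the AP-1 genes.

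The genes lie on 6 chromosomes of GRCm38 (GENCODE M21): Fos at chr12:85473890-85477273 on the plus strand, Fosb at chr7:19302696-19310051 on the minus strand, Fosl1 at chr19:5447547-5455946 on the plus strand, Fosl2 at chr5:32135801-32157842 on the plus strand, Jun at chr4:95049034-95052222 on the minus strand, Junb at chr8:84974484-84978718 on the minus strand and Jund at chr8:70698949-70700616 on the plus strand. The count files place Fosl1 differently, with a start of 5447702 (counted from 0) and an end of 5455945. The longest transcript of each FOS gene has 4 exons, and that of each JUN gene has 1. Jun, Junb, Jund and Fosl1 each overlap a gene on the opposite strand, by 689 bp with Junos, 351 bp with Prdx2, 919 bp with Gm11175 and 2767 bp with Ccdc85b. The strand setting of the read counting is not given in the sources used here, so the values of those neighbours stand beside the results below. Fos, Fosb and Fosl2 overlap no annotated gene.

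Promoter windows of RefSeq (GRCm38.p6, 250 bases before to 50 after the annotated start) were held for 6 of the 7 genes, all but Fosl1. The 150 bases before the start are shown for Fos, Fosb, Jun and Junb, which rose with serum under both siRNAs and whose RefSeq start lies close to the start of the GENCODE gene, so that promoters of genes that moved together can be read side by side. The RefSeq start of Fosl2 lies inside the GENCODE gene, and its window holds none of the 3 motifs marked here. Capitals mark matches to TATAAA, to TGACG (the first 5 letters of a cAMP response element, TGACGTCA, and so contained in it) and to TGANNTCA (that element with any 2 central bases). TGACG was added to the search after these sequences had been seen.
Fos, chr12:85473740-85473889, plus strand: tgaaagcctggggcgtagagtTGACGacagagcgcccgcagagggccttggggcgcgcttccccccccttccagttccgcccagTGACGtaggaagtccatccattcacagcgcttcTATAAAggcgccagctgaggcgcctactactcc
Fosb, chr7:19310046-19310195, minus strand: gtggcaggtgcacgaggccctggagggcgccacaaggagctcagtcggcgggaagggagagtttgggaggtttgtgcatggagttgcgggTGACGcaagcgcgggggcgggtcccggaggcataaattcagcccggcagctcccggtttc
Jun, chr4:95052223-95052372, minus strand: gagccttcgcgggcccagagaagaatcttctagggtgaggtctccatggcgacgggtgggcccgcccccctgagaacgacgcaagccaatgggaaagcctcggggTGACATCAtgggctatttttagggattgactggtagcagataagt
Junb, chr8:84978749-84978898, minus strand: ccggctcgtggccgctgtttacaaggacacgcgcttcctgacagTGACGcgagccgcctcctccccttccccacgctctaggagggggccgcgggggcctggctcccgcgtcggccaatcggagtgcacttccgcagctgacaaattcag

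Counting from 0 at the first base of the RefSeq gene, the TATA box of Fos spans -33 to -28. The Fos window holds TGACG at -129 to -125 and at -66 to -62, that of Fosb at -60 to -56 and that of Junb at -106 to -102. Jun has TGACATCA at -45 to -38 and a further match to TGANNTCA at 2 to 9, after the printed stretch. The Junb window matches TATAAA at 0 to 5, after the printed stretch. GENCODE starts Junb further downstream, at base 84978718, so the match lies before that start. Over both strands, 20.8% of the 32851 promoter windows hold TGACG, 13.6% hold TATAAA and 14.1% hold TGANNTCA. None of the 6 windows holds the full TGACGTCA (1.79% of all windows), TGANTCA, the pattern searched for an AP-1 site (7.81%), or an SRF CArG box (1.63%). Sequence more than 250 bases before the start was not searched, so these absences do not cover sites further upstream. Elements that bind AP-1 but differ from TGANTCA were not counted as AP-1 sites. All 6 windows hold GGAA, the core of ETS factor sites, as do 96.0% of all windows. The Jund window (chr8:70697489-70697788) lies upstream of the start that GENCODE gives for the gene, so it is not shown. Its match to TGANNTCA is at -61 to -54.

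The 3′ ends of immediate early mRNAs often carry AUUUA pentamers, written ATTTA in DNA letters, which are known from mRNAs with a short life. In the longest 3′ untranslated region of each gene there were 4 ATTTA in the 815 bases of Fos, 1 in the 2302 bases of Fosb, 1 in the 638 bases of Fosl1, 8 in the 4653 bases of Fosl2, 4 in the 1233 bases of Jun, 2 in the 485 bases of Junb and 1 in the 533 bases of Jund. Per kilobase, Fos (4.91), Junb (4.12) and Jun (3.24) had the most, against a median of 1.28 over the 13798 tested genes with an annotated region. Fosl2 (1.72), Jund (1.88) and Fosl1 (1.57) were nearer to that median, and Fosb (0.434) was below it. The 30-base stretches with the most pentamers are shown for the 3 genes that reach 2 in such a stretch, with the pentamers in capitals.
Fos, chr12:85477090-85477119, plus strand: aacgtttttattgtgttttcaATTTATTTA
Fosl2, chr5:32156858-32156887, plus strand: agaagaaattgacATTTAttttattATTTA
Jun, chr4:95049210-95049239, minus strand: gtgatcATTTAtaatcataggaaagATTTA

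Total counts per library ranged from 18026298 to 26265253 (median 20710185.5). Below, a normalized count is a gene's count per TMM-corrected library size, multiplied by the average of these sizes over the 12 libraries, and each difference is a log2 fold change (log2FC) with its standard error from 1 edgeR quasi-likelihood fit of all 12 libraries, called when the p-value, adjusted over the 18668 genes tested, was under 0.05. Tmpo, the knockdown target, had 2775, 2805 and 2885 normalized counts in starved control cells and 982, 1175 and 1093 in starved Lap2-depleted cells, which was 38.4% of the control mean. In 15% FBS the control libraries had 3264, 3243 and 3019 and the Lap2-depleted libraries 767, 745 and 607, which was 22.2% of the control mean. The libraries of the siRNAs did not overlap, and the knockdown was deeper in 15% FBS (interaction log2FC -0.79 ± 0.11, adjusted p = 2.95e-06). Summed over 8 fibroblast markers, the libraries held 39512 to 41007 CPM (starved control), 36665 to 39766 (stimulated control), 26786 to 32555 (starved Lap2-depleted) and 27666 to 30560.4 (stimulated Lap2-depleted). The markers of leukocytes summed to at most 2.72 CPM in any library, those of epithelial cells to 1.15, those of endothelial cells to 0.803 and those of muscle to 0.797, with Krt18, Itgam, Myod1 and Myog at 0 in all 12. The summed fibroblast marker level moved with the siRNA, but single markers differed. In 0.3% FBS, Lap2 siRNA lowered 5 of the 8 and raised 2, Fn1 (log2FC 0.37) and S100a4 (0.46). In 15% FBS it lowered 6, while Pdgfrb (0.17) and S100a4 (0.26) were not called. Over all tested genes, 18.6% fell and 17.8% rose in 0.3% FBS, and 12.1% fell and 11.4% rose in 15% FBS. The part of these markers in the results below was not tested.

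**Figure D1:**
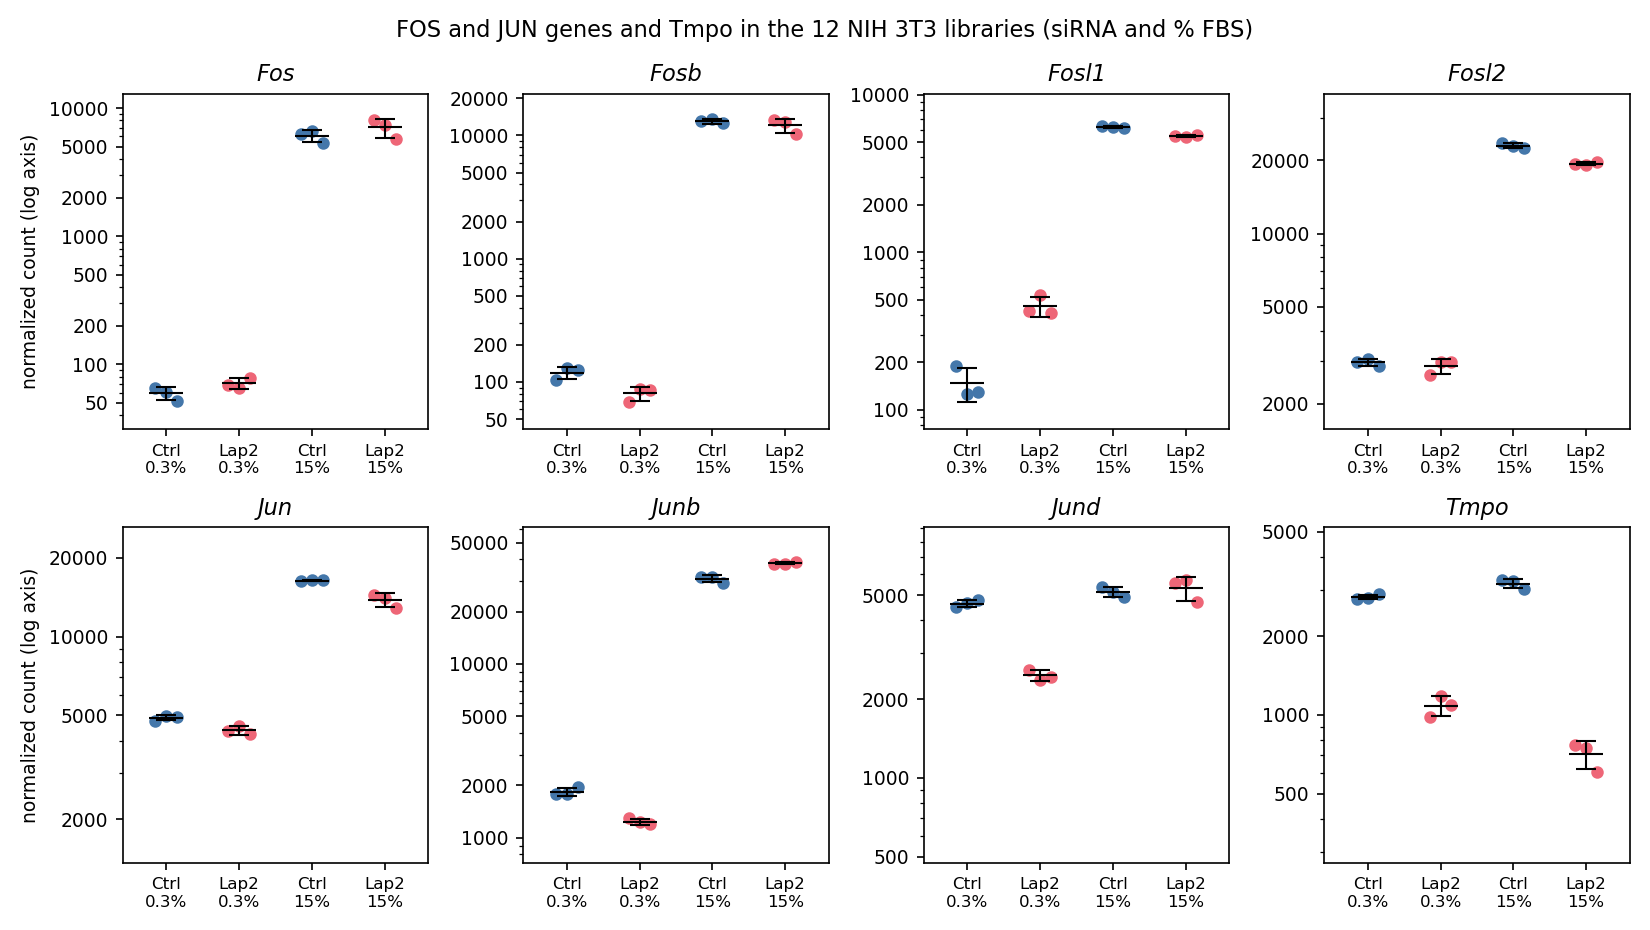
Normalized counts (log axis, a different range in each panel) of the 7 FOS and JUN genes and of Tmpo in each of the 12 libraries, by siRNA (Ctrl, blue, or Lap2, red) and serum (0.3% or 15% FBS). Points are libraries, and bars show the mean and SD of 3. Fos and Fosb were between 51.8 and 129 normalized counts in starved cells and between 5367 and 13675.5 after serum, whereas Jund was between 2371 and 5687 in all 4 groups, and lowest in starved Lap2-depleted cells.

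Serum stimulation of control siRNA treated cells raised 6 of the 7 genes and lowered none, where 15.6% of all tested genes rose and 13.9% fell (29.5% called in either direction). The response was 102-fold for Fos and 110-fold for Fosb, 42.2-fold for Fosl1, 16.8-fold for Junb, 7.74-fold for Fosl2 and 3.34-fold for Jun, and the change of Jund did not pass the test. In bulk RNA of this kind, more cells making a transcript and more transcript per cell cannot be told apart. Fos, the founding FOS gene, had 65.8, 60.6 and 51.8 normalized counts in starved control cells and 6243, 6657 and 5367 after serum (log2FC 6.67 ± 0.13, adjusted p = 3.76e-29). Fosb, the closest relative of Fos, had 103, 129 and 124 in starved cells and 13006, 13675.5 and 12520.3 after serum (log2FC 6.78 ± 0.11, adjusted p = 1.53e-31). These genes had the lowest mean counts of the 7 in starved cells, and every stimulated library stood far above every starved one. Fosl1 had 189, 126 and 131 in starved cells and 6367, 6229 and 6172 after serum (log2FC 5.40 ± 0.11, adjusted p = 3.99e-29). Fosl2 had 2976, 3064 and 2863 in starved cells and 23556, 22889 and 22491 after serum (log2FC 2.95 ± 0.065, adjusted p = 1.26e-27). Fosl2 was thus well detected without serum, unlike the other FOS genes, and its fold change was the smallest of the 4.

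Among the JUN genes, Junb had 1772, 1795 and 1947 normalized counts in starved control cells and 31819, 31719 and 29305 after serum (log2FC 4.07 ± 0.068, adjusted p = 4.66e-31). Jun, the partner that most AP-1 pairs are described with, had 4774, 4964 and 4940.1 in starved cells and 16305, 16394 and 16392 after serum (log2FC 1.74 ± 0.061, adjusted p = 6.50e-22). Both were clear of overlap, and the 3 stimulated Jun libraries had a coefficient of variation of 0.310%. Jund had 4484, 4656 and 4778 in starved cells and 5352, 5115 and 4918 after serum. All 3 stimulated libraries of Jund were above the starved ones, as for 21.3% of all genes, but its log2FC of 0.14 ± 0.068 had an adjusted p of 0.112. The direction for Jund depends on the scaling: with total counts it was -0.062, where the median of all genes moved by -0.21, and relative to that median it stayed at 0.14. Jund was called higher when only the control groups were fitted (log2FC 0.15, adjusted p = 0.0279) and when replicate 1 of the starved Lap2-depleted cells was left out (0.16, adjusted p = 0.0240). The neighbours on the other strand were at 1144 ± 117 and 4394 ± 128 (Ccdc85b), 53.8 ± 8.3 and 91.0 ± 25.0 (Junos), 6361 ± 127 and 5470.2 ± 142 (Prdx2) and 93.3 ± 18.6 and 93.4 ± 44.7 (Gm11175) normalized counts (mean ± SD, n = 3) in starved and stimulated control cells.

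When the 10449 tested genes averaging 100 or more normalized counts were ordered by the ratio of their group means (1 added to each mean), Fosb stood at rank 9 of the serum response in control cells, Fos at 12, Fosl1 at 28, Junb at 49, Fosl2 at 97, Jun at 204 and Jund at 3352. In Lap2-depleted cells, Fosb was at rank 2, Fos at 5, Junb at 21, Fosl1 at 42, Fosl2 at 79, Jun at 201 and Jund at 371. In absolute terms the order differed: Junb gained 29109.5 normalized counts in control cells, Fosl2 20012, Fosb 12949, Jun 11471, Fosl1 6108, Fos 6029.7 and Jund 489.

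In Lap2-depleted cells all 7 genes rose with serum, where 18.3% of all tested genes rose and 14.9% fell (33.2% in either direction). Fos went from 68.9, 65.5 and 78.3 normalized counts to 8114, 7319.8 and 5718 (log2FC 6.63 ± 0.13, adjusted p = 3.86e-29). Fosb went from 68.9, 88.4 and 85.5 to 13237, 12792 and 10206.5 (log2FC 7.23 ± 0.11, adjusted p = 1.10e-31). The stimulated libraries of these genes were more scattered than with control siRNA. Replicate 3 was the lowest for both genes, as it also was among the stimulated libraries with control siRNA. Fosl1 went from 423, 534 and 411 to 5499.6, 5365.5 and 5537 (log2FC 3.59 ± 0.093, adjusted p = 1.44e-25), and Fosl2 from 2620.4, 2985 and 2960.4 to 19323, 19124 and 19702 (log2FC 2.76 ± 0.065, adjusted p = 9.22e-27). Fosl1 started from a level that no starved control library reached, and its rise was 12.0-fold. Junb went from 1294, 1228 and 1195 to 37468, 37872 and 38434 (log2FC 4.94 ± 0.071, adjusted p = 1.23e-32) and Jun from 4370.5, 4549 and 4224 to 14443, 14082 and 12905 (log2FC 1.66 ± 0.061, adjusted p = 3.53e-21). Jund went from 2590.1, 2371 and 2436 to 5535, 5687 and 4684 (log2FC 1.10 ± 0.069, adjusted p = 7.51e-15), a rise of 2.15-fold.

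**Figure D2:**
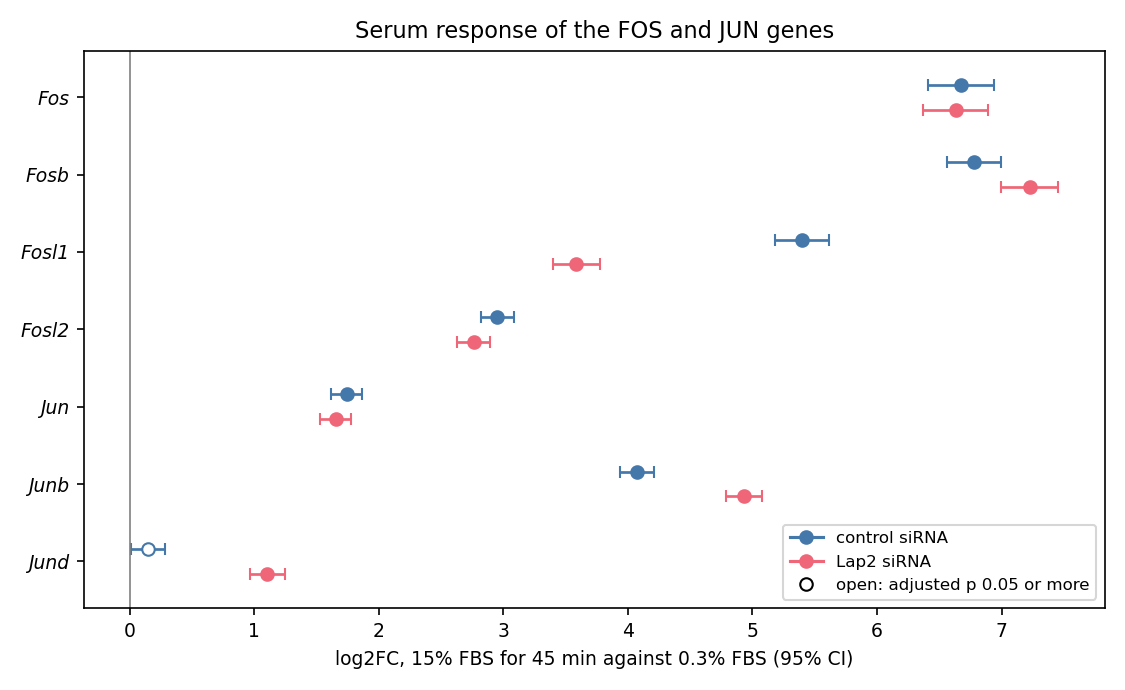
Serum response of each gene as log2FC of 15% FBS against 0.3% FBS with its 95% confidence interval, with control siRNA (blue) and Lap2 siRNA (red). Filled points passed the test and the open point did not. The pairs of intervals lie apart for Fosl1 (5.40 and 3.59), Junb (4.07 and 4.94) and Jund (0.14 and 1.10), and overlap for Fos (6.67 and 6.63).

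The responses were compared directly by the interaction, which is the log2FC with Lap2 siRNA minus that with control siRNA. The test passed for 3 genes: Junb (0.86 ± 0.087, adjusted p = 8.39e-09) and Jund (0.96 ± 0.10, adjusted p = 7.64e-09) responded more in Lap2-depleted cells, and Fosl1 (-1.81 ± 0.14, adjusted p = 2.36e-11) responded less. Over all tested genes 7.09% had a higher and 6.51% a lower response (13.6% in either direction). These 3 genes kept their calls in each of the 19 alternatives tried. Fos had an interaction of -0.038 with a 95% confidence interval from -0.46 to 0.39 (adjusted p = 0.942), so smaller differences than these were not detectable at this depth and number of libraries. Jun had -0.086 (interval -0.26 to 0.086, adjusted p = 0.589). Fosb had 0.45 (interval 0.11 to 0.78, adjusted p = 0.0679) and was called with no filter on low counts (0.44) and without replicate 1 of the starved control cells (0.54) or without replicate 3 of the stimulated Lap2-depleted cells (0.56). It stayed uncalled in 15 of 19 alternatives. Fosl2 had -0.19 (interval -0.37 to -0.013, adjusted p = 0.163) and stayed uncalled in 17 of 19 alternatives. It was called with DESeq2 (-0.21) and without replicate 1 of the starved Lap2-depleted cells (-0.28). That library also bears on the whole table: without it, 1975 genes had a lower response in place of 1216.

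In 0.3% FBS, Lap2 siRNA raised 1 of the 7 genes and lowered 4, where 17.8% of all tested genes rose and 18.6% fell (36.5% in either direction). Fosl1, the Fra-1 gene, rose 3.07-fold, from a highest control library of 189 to a lowest Lap2 library of 411 normalized counts (log2FC 1.62 ± 0.11, adjusted p = 1.72e-13), and stood at rank 23 of the 10449 more abundant genes. Jund fell by 0.91 on the log2 scale (SE 0.069, adjusted p = 1.18e-12), to 53.1% of the control mean. Junb fell by 0.57 (SE 0.064, adjusted p = 7.79e-09), to 67.4%, and Fosb fell by 0.56 (SE 0.15, adjusted p = 0.00230), to 68.2%. None of these 4 genes had overlapping libraries, as was so for 21.3% of all genes upwards and 22.1% downwards. Jun fell by 0.16 (SE 0.060, adjusted p = 0.0366), to 89.5%, also without overlap. The Jun call is not firm: it was lost with total counts (-0.050), upper-quartile scaling (-0.14), a fit of the starved groups alone (-0.17), and without replicate 2 (-0.15) or 3 (-0.14) of the control cells or replicate 3 (-0.11) of the Lap2-depleted cells. Fos had a log2FC of 0.25 (interval -0.15 to 0.64, adjusted p = 0.347) and Fosl2 of -0.056 (interval -0.18 to 0.071, adjusted p = 0.530), both with overlapping libraries. Fosl2 turned to 0.053 with total counts and to 0.018 without replicate 1 of the Lap2-depleted cells.

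In 15% FBS, Junb was 1.23-fold higher in Lap2-depleted cells (log2FC 0.29 ± 0.059, adjusted p = 0.000276), with its lowest Lap2 library at 37468 and its highest control library at 31819, a separation upwards that 20.3% of all genes had. Fosl2 fell by 0.25 (SE 0.060, adjusted p = 0.00225) and Jun fell by 0.24 (SE 0.059, adjusted p = 0.00201), to 84.4% of the control mean each, without overlap. So 1 gene rose and 2 fell, where 11.4% of all tested genes rose and 12.1% fell (23.4% in either direction). Fosl1 had a log2FC of -0.19 (interval -0.35 to -0.034, adjusted p = 0.0737), and its 3 Lap2 libraries were all below the control ones, as for 18.5% of all genes. It was called lower with DESeq2 (-0.21), in a fit of the stimulated groups alone (-0.20), with no filter on low counts (-0.20), and without replicate 1 of the starved control cells (-0.19) or any 1 of the starved Lap2-depleted libraries (-0.21 each). Fosl1 stayed uncalled in 13 of 20 alternatives. Fos had 0.21 (interval 0.035 to 0.39, adjusted p = 0.0761) with overlapping libraries, and was called higher with total counts (0.30), with no filter (0.20), and without replicate 2 of the stimulated control cells (0.27), replicate 1 of the starved Lap2-depleted cells (0.20) or replicate 3 of the stimulated Lap2-depleted cells (0.34). Fos stayed uncalled in 14 of 20 alternatives, and its value went down to 0.098 with a library left out. Fosb had -0.11 (interval -0.27 to 0.040) and Jund 0.047 (interval -0.090 to 0.19), which turned to -0.0060 without replicate 2 of the stimulated Lap2-depleted cells. With 3 libraries against 3, an exact permutation test of a single gene cannot go below p = 0.1, the value of every gene whose libraries did not overlap.

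**Figure D3:**
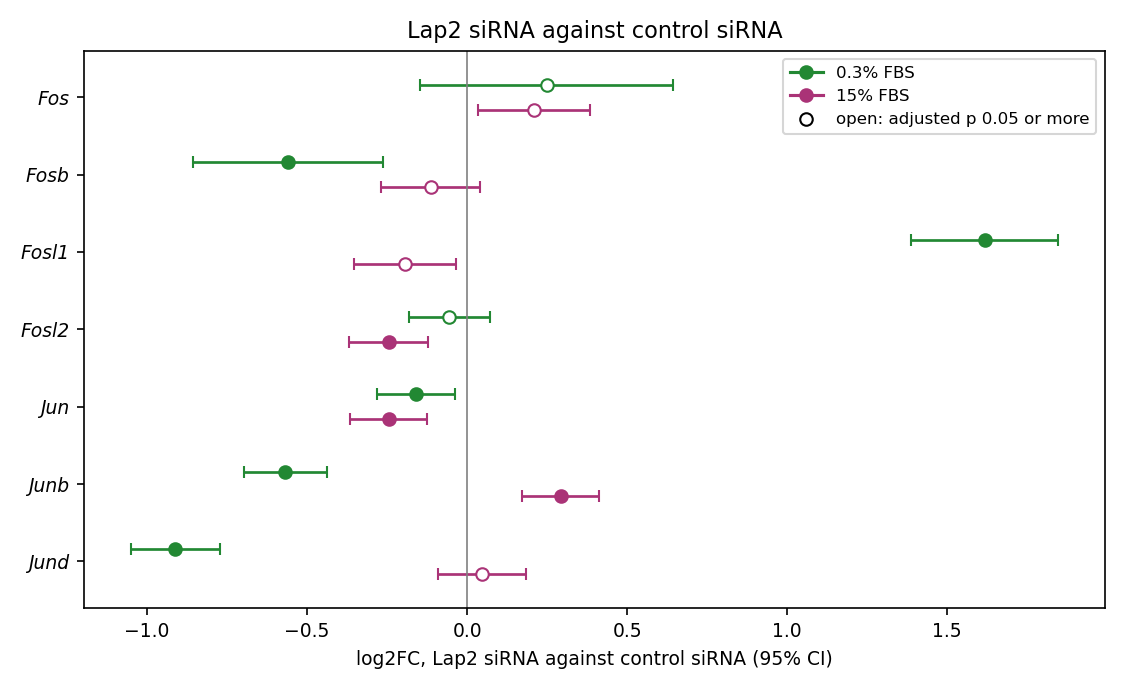
Difference of each gene between Lap2 siRNA and control siRNA as log2FC with its 95% confidence interval, in 0.3% FBS (green) and in 15% FBS (purple). Filled points passed the test and open points did not. Fosl1 stands at 1.62 and Jund at -0.91 in starved cells, while all values in stimulated cells lie between -0.25 and 0.29.

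Some genes on the other strand changed with the siRNA as well, and their part in these values was not tested. Ccdc85b, which overlaps Fosl1, had a log2FC of 0.19 (adjusted p = 0.0999) with Lap2 siRNA in starved cells, against 1.62 for Fosl1, and fell by 0.34 (adjusted p = 0.00273) in stimulated cells. Prdx2, a peroxidase gene that overlaps Junb, fell by 0.38 (adjusted p = 4.85e-05) in starved cells and had -0.080 (adjusted p = 0.491) in stimulated ones. Gm11175, which overlaps Jund, had 59.9 ± 18.9 normalized counts (SD, n = 3) in starved Lap2-depleted cells against 93.3 ± 18.6 in starved control cells. Its log2FC was -0.62 (adjusted p = 0.0593), and the difference of Jund between the same groups was -2174 normalized counts. Junos, the antisense RNA at Jun, rose in starved cells with Lap2 siRNA (log2FC 1.05 ± 0.20, adjusted p = 5.88e-05), from 44.2, 58.9 and 58.2 to 100.1, 122 and 113 normalized counts. In stimulated cells Junos fell by 0.54 with Lap2 siRNA (SE 0.20, adjusted p = 0.0489), where Jun fell too. With serum Junos rose under control siRNA (0.77, adjusted p = 0.00323) and fell by 0.82 under Lap2 siRNA (adjusted p = 0.00117), and its serum responses differed (interaction -1.59 ± 0.28, adjusted p = 0.000111) where the interaction of Jun did not pass the test.

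To compare genes with each other, normalized counts were divided by the length of each gene's merged exons. On this scale of level per kilobase, starved control cells had Jund highest (2781 ± 89, SD, n = 3), followed by Jun (1534 ± 32), Junb (799 ± 41), Fosl2 (307 ± 10), Fosl1 (73.1 ± 17.5), Fos (25.3 ± 3.0) and Fosb (19.0 ± 2.2), and each gene was above the next in every library. After serum, Junb was highest (13450 ± 619), then Jun (5131 ± 16), Fosl1 (3077 ± 49) and Jund (3075 ± 130), Fos (2589 ± 280) and Fosl2 (2374 ± 56), and Fosb (2093 ± 93). Fosl1 could not be separated from Jund there, nor Fos from Fosl2. In starved Lap2-depleted cells Jund (1478 ± 68) and Jun (1374 ± 51) could no longer be separated, and Junb (538 ± 22), Fosl2 (295 ± 21), Fosl1 (224 ± 33), Fos (30.1 ± 2.8) and Fosb (13.0 ± 1.7) followed in the same order as in control cells. In stimulated Lap2-depleted cells Junb (16482 ± 211) and Jun (4330 ± 252) led, Jund (3179 ± 324), Fos (2998 ± 519) and Fosl1 (2689 ± 44) overlapped in that order from neighbour to neighbour, and Fosl2 (2002 ± 30) overlapped Fosb (1935 ± 262). Parts of this order depend on the length used. Per kilobase of the longest transcript, Fosb had 31.4 ± 3.7 and Fos 28.2 ± 3.4 in starved control cells, with overlapping libraries. In stimulated control cells Fosl2 (3515 ± 82), Fosb (3455 ± 153), Fosl1 (3356 ± 54), Jund (3075 ± 130) and Fos (2889 ± 312) then followed Junb and Jun. Fosl2 overlapped Fosb there, Fosb overlapped Fosl1 and Jund overlapped Fos, while Fosl1 was above Jund in every library. In stimulated Lap2-depleted cells Fos (3345 ± 579), Fosb (3194 ± 433), Jund (3179 ± 324), Fosl2 (2965 ± 45) and Fosl1 (2933 ± 48) followed Junb and Jun, each overlapping the next. Junb and Jun led after serum, Jund had the highest mean in starved cells, and Fosl2 and Fosl1 were above Fos and Fosb in starved cells with both lengths.

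As a description of the mRNA pools, with no test, the summed JUN level per kilobase exceeded the summed FOS level in all 4 groups. In control cells the FOS sum went from 424 ± 22 to 10133 ± 428 and the JUN sum from 5115 ± 153 to 21656 ± 724 (SD, n = 3). In Lap2-depleted cells the FOS sum went from 562 ± 47 to 9624 ± 735 and the JUN sum from 3390.4 ± 90.9 to 23991 ± 383. The FOS pool of starved control cells was mostly Fosl2, at 72.4% ± 2.9, with 17.2% ± 3.4 Fosl1. In starved Lap2-depleted cells Fosl2 held 52.5% ± 2.4 and Fosl1 39.8% ± 3.2. After serum the FOS pool was spread over all 4 genes: in control cells Fosl1 held 30.4% ± 1.1, Fos 25.5% ± 1.7, Fosl2 23.4% ± 0.7 and Fosb 20.7% ± 0.4. In Lap2-depleted cells Fos held 31.0% ± 3.1, Fosl1 28.1% ± 2.4, Fosl2 20.9% ± 1.9 and Fosb the rest. In the JUN pool, serum moved the largest share from Jund to Junb. Jund held 54.4% ± 0.1 in starved control cells and 14.2% ± 0.3 after serum, while Junb went from 15.6% ± 0.4 to 62.1% ± 0.8. In Lap2-depleted cells Jund went from 43.6% ± 1.4 to 13.2% ± 1.1, Junb from 15.9% ± 0.2 to 68.7% ± 1.9, and Jun from 40.5% ± 1.5 to 18.0% ± 0.8. These shares use a gene's whole exon set. With the longest transcript, the order within the FOS pool of stimulated cells turned: in control cells Fosl2 held 26.6% ± 0.8, Fosb 26.1% ± 0.5, Fosl1 25.4% ± 0.9 and Fos 21.8% ± 1.5, and in Lap2-depleted cells Fos held 26.8% ± 2.7, Fosb 25.6% ± 1.7, Fosl2 24.0% ± 2.2 and Fosl1 23.7% ± 2.1. Fosl2 still led the starved FOS pool (76.6% ± 2.3 with control siRNA and 59.4% ± 2.3 with Lap2 siRNA), and Junb the stimulated JUN pool (67.6% ± 0.8 and 73.6% ± 1.7).

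**Figure D4:**
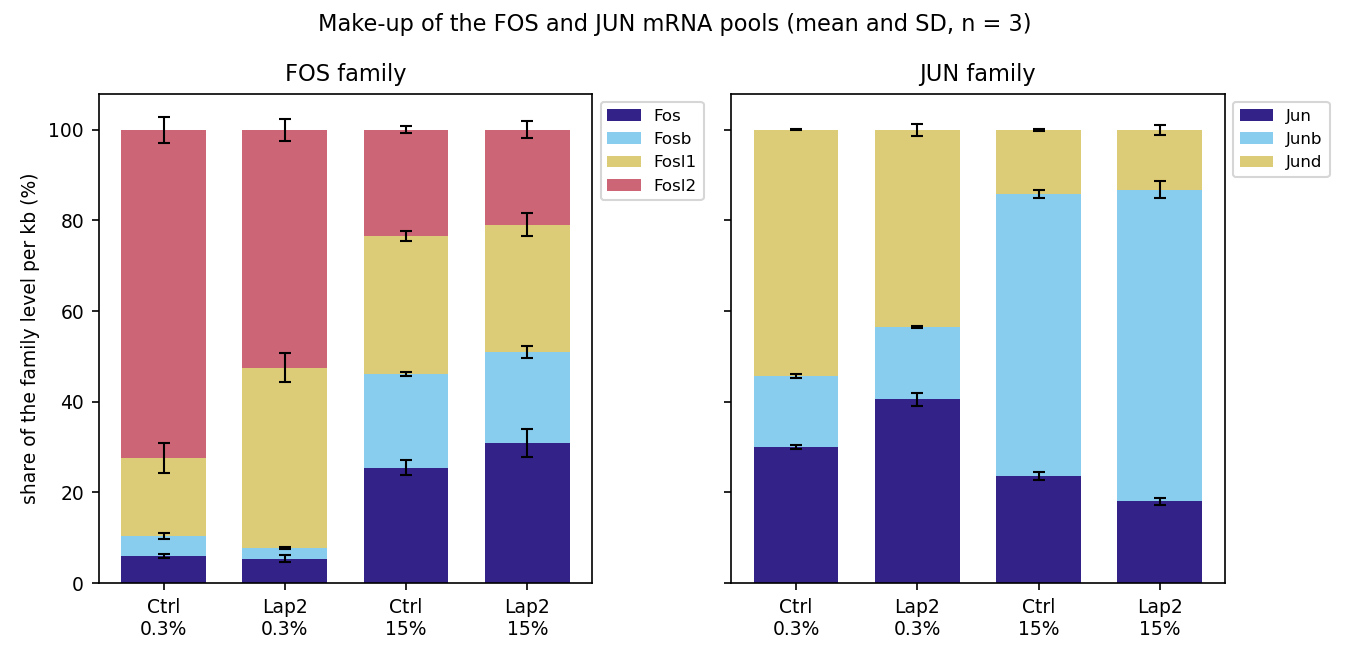
Share of each gene in the summed FOS level per kilobase (left) and the summed JUN level per kilobase (right), in percent, by siRNA and serum. Stacked bars are means of 3 libraries and error bars are SDs at the top of each segment. Fosl2 fills 72.4% of the FOS bar in starved control cells and Junb 62.1% and 68.7% of the JUN bars after serum.

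The genes most like each member were those with the highest Pearson r of log2 CPM over the 12 libraries, among the more abundant genes. These correlations carry no test, since the 4 groups dominate them and all points come from the same libraries. Fos was most like Csrnp1 (r = 0.999), the early growth response gene Egr1 (0.999) and the clock gene Per1 (0.998). Egr1 had 784 normalized counts in starved control, 31246 in stimulated control, 978 in starved Lap2-depleted and 29837 in stimulated Lap2-depleted cells. Fosb was most like Phf13, Klf10 and Btg2 (0.999 each), and Junb like Klf10, Btg2 (0.998 each) and Rnf19b (0.997). Klf10, a zinc finger factor, and Btg2, an antiproliferative gene, were thus shared by Fosb and Junb, and both were lower in starved Lap2-depleted than in starved control cells (418 against 531, and 231 against 299). Both were picked for their likeness to Fosb and Junb, so these lower values are no separate evidence. Fosl1 was most like the ephrin receptor gene Epha2 (0.999) and the MAP kinase phosphatase genes Dusp5 (0.998) and Dusp6 (0.997). All 3 had, like Fosl1, higher mean counts in starved cells with Lap2 siRNA than with control siRNA: Epha2 had 684 normalized counts against 292, Dusp5 687 against 238 and Dusp6 810 against 309. Being picked for their likeness to Fosl1, they are no separate evidence of it. Fosl2 was most like Thbs1 (0.999), Stk40 (0.999) and Errfi1 (0.998), and Jun like Cttnbp2nl, the actin gene Actg1 (0.997 each) and Stambpl1 (0.996). Jund was most like Aspn (0.979), Lmcd1 (0.979) and Jdp2 (0.977), with lower coefficients than the others. Between members, r ran from 0.482 (Fosl1 with Jund) to 0.997 (Fosb with Fosl2). Jund had the lowest values, at most 0.747 (with Junb).

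Partners that share the leucine zipper or compete for AP-1 sites were measured as a list of 12 genes, of which 10 were tested and Batf and Batf3 had too few counts. With serum, 5 rose and 1 fell in control cells (median log2FC 0.24, against -0.0090 over all genes), led by Atf3 (5.71 ± 0.13), a stress-inducible member of the ATF family, Maff (5.65 ± 0.10), a small MAF protein without an activation domain, and Mafk (2.52 ± 0.084), of the same kind. In Lap2-depleted cells 6 rose and none of the 10 fell (1 lower at an unadjusted p under 0.05 by edgeR, 0 by DESeq2; median 0.69, against 0.0030), led by Atf3 (4.93 ± 0.12), Maff (4.68 ± 0.10) and Mafk (2.02 ± 0.085). Lap2 siRNA in 0.3% FBS raised 3 and lowered 2 (median 0.025, against 0.010), with Atf3 at 0.90 ± 0.18, Mafg at 0.84 ± 0.080 and Jdp2 at -0.71 ± 0.081. In 15% FBS 1 rose and 2 fell (median 0.093, against 0.017): Maf (0.42 ± 0.12), Mafk (-0.47 ± 0.075) and Maff (-0.44 ± 0.069). The interaction passed for 6, with 2 higher and 4 lower (median -0.18, against 0.020), led by Maff (-0.98 ± 0.16), Maf (0.86 ± 0.16) and Atf3 (-0.78 ± 0.20). Over all tested genes, 15.6% rose and 13.9% fell with serum in control cells, 18.3% and 14.9% in Lap2-depleted cells, 17.8% and 18.6% with Lap2 siRNA in 0.3% FBS and 11.4% and 12.1% in 15% FBS, and 7.09% had a higher and 6.51% a lower interaction. Jdp2, a repressor that pairs with JUN proteins, had an interaction of 0.72 ± 0.11 (adjusted p = 1.50e-05). Its pattern was one of the nearest to Jund: it fell in starved cells with Lap2 siRNA and had 0.019 (adjusted p = 0.910) in stimulated cells. Jdp2 was picked above for its likeness to Jund, so this is no separate evidence.

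Kinases that signal to AP-1 were measured as a list of 14. Of these, 3 rose and 1 fell with serum in control cells (median log2FC 0.11), with Mapk8, the JNK1 gene, at 0.66 ± 0.088, Map3k1 at -0.56 ± 0.21 and Rps6ka3 at 0.36 ± 0.074, and 5 rose and none of the 14 fell in Lap2-depleted cells (1 lower at an unadjusted p under 0.05 by edgeR, 0 by DESeq2; median 0.021), among them Mapk8 (0.58 ± 0.086) and Mapk9 (0.24 ± 0.068). Called genes were thus 28.6% and 35.7% of the list, near the 29.5% and 33.2% of all tested genes. Map2k1 and Map2k4, which also rose there and were named after their values were seen, turned from 0.18 each to -0.052 and -0.047 with total counts. With that scaling the median of all genes moved by -0.23 in the same comparison. With Lap2 siRNA, 3 rose and 3 fell in 0.3% FBS (median -0.011), and 3 rose and 4 fell in 15% FBS (median 0.013). The 6 genes called in 0.3% FBS are 42.9% of the list, against 36.5% of all tested genes, and the 7 in 15% FBS compare with 23.4% of all tested genes. Rps6ka5, which encodes the chromatin kinase MSK1, fell by 0.68 (SE 0.14) in starved cells and fell by 0.58 (SE 0.14) in stimulated cells. Mapk14, the p38 alpha gene, rose by 0.38 ± 0.066 in starved cells, and Rps6ka3 fell by 0.32 (SE 0.074) in stimulated cells. No interaction passed the test in this list with edgeR, with 0 genes at an unadjusted p under 0.05 and 0 called by DESeq2. Over all tested genes, 13.6% had a called interaction. Of 7 genes for coactivators and proteins that act on AP-1 turnover, 1 rose (Itch, 0.22 ± 0.067) and 1 fell (Men1, -0.46 ± 0.070) with serum in control cells, and 2 rose and 3 fell in Lap2-depleted cells, led by Men1 (-0.43 ± 0.071), Cop1 (0.43 ± 0.066) and Ep300 (-0.32 ± 0.079). Menin, the product of Men1, binds JunD. With Lap2 siRNA, 2 rose and 2 fell in starved cells, with Cops5 at 0.27 ± 0.069, Ep300 at 0.26 ± 0.079 and Cop1 at -0.21 ± 0.066, and Cops5 (0.29 ± 0.070) and Cop1 (0.21 ± 0.065) rose in stimulated cells. Called genes were 28.6%, 71.4%, 57.1% and 28.6% of these 7 in the same 4 comparisons, against 29.5%, 33.2%, 36.5% and 23.4% of all tested genes, and with so few genes 1 call is 14.3% of the list. Cop1, a ubiquitin ligase known to act on Jun, was the gene with a called interaction (0.42 ± 0.093, adjusted p = 0.00166). That is 14.3% of the list, near the 13.6% of all tested genes. The medians of this list were between -0.055 and 0.034 in the 5 comparisons.

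Of 15 genes often described as AP-1 targets, 12 were tested, since the protease genes Mmp3, Mmp10 and Mmp13 had at most 4 counts in all libraries together. This list, like those above, was chosen with earlier results of these data known. Its shares beside those of all genes are a description, with no test. Whether AP-1 acted on these genes here was not tested. With control siRNA all 12 tested genes rose with serum, against 15.6% of all genes (median log2FC 2.26), led by the cytokine gene Lif (7.16 ± 0.13), the growth factor gene Hbegf (6.74 ± 0.11) and Plaur, the urokinase receptor gene (4.77 ± 0.11). With Lap2 siRNA 11 rose and 1 fell, against 18.3% and 14.9% of all genes (median 1.82, against 0.0030). The largest rises were those of Hbegf (6.25 ± 0.11), Lif (6.24 ± 0.14) and Plau (3.64 ± 0.084). The gene that fell was Ccnd1, which encodes cyclin D1 and is named after its values were seen: after serum it had a log2FC of 0.45 ± 0.11 in control cells and of -0.57 ± 0.11 in Lap2-depleted cells. The interaction was lower for 7 of the 12, against 6.51% of all genes, and higher for none (median -0.59, against 0.020 over all genes, with 0 higher at an unadjusted p under 0.05 by edgeR and 0 by DESeq2), led by Plaur (-1.43 ± 0.15, adjusted p = 1.08e-08), Ccnd1 (-1.02 ± 0.16, adjusted p = 1.43e-05) and Lif (-0.92 ± 0.29, adjusted p = 0.0310). In starved cells Lap2 siRNA raised 7 of the 12, or 58.3% against 17.8% of all genes, and lowered none (median 0.33, against 0.010, with 0 lower at an unadjusted p under 0.05 by edgeR and 0 by DESeq2), with Plaur at 0.83 ± 0.12, Ccl2 at 0.82 ± 0.11 and the hyaluronan receptor gene Cd44 at 0.80 ± 0.083. In stimulated cells 1 rose and 4 fell, against 11.4% and 12.1% of all genes (median -0.11, against 0.017), led by Lif (-0.94 ± 0.076), Ccnd1 (-0.69 ± 0.11) and Plaur (-0.60 ± 0.084).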

How the data were processed

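RNA-seq of NIH 3T3 cells gave 12 libraries, 3 for each siRNA and serum condition, grouped by their labels. The deposited files hold raw counts per gene: the authors aligned reads to mm10 (GRCm38) with TopHat2 in Chipster at default settings and counted them with HTSeq. Tool versions, the annotation and the strand setting are not given in the sources used here. The labels name DESeq2 and the paper's methods DESeq.

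Genes counted more than once in 3 or more libraries (18668) were fitted with edgeR 4.0.16 (R 4.3.3; TMM, glmQLFit, glmQLFTest, 1 mean per group, Benjamini-Hochberg over all genes, threshold 0.05). SEs and 95% confidence intervals derive from the F statistic. The fit was tested on simulated counts. Total counts of 18026298 to 26265253 gave SEs of 0.059 to 0.071 for Jun, Junb, Jund and Fosl2 between groups and 0.19 for Fos in starved cells; 3 libraries per group limit precision further. No 2 libraries held identical counts. Lengths and 3′ untranslated regions came from GENCODE M21, and promoters and motif counts from RefSeq windows. Tables and figures used Python 3.11.15, pandas 2.3.3, numpy 2.4.6 and matplotlib 3.10.9.

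The members, gene lists and tests were chosen with earlier results of these data known. All 7 members were named; of each list, at most 3 called genes with the largest log2FC in a comparison, and, for each member, the 3 genes of highest r among those averaging 100 or more normalized counts. The list of overlapping neighbours was added after the annotation was read. Alternatives were DESeq2 1.42.0, total counts, upper-quartile scaling, other filters (filterByExpr, a count above 1 in every library, none), separate fits of each pair of groups, a replicate block, each library left out and, for levels, the longest transcript. Protein sequences and a Fosl1 promoter were not analysed here. One gene of the kinase list is not reported here by name.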

Additional observations from a re-analysis of the deposited data

Results flagged for a closer look

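The serum responses of 3 genes differed between the siRNAs by the interaction term of the edgeR fit. Fosl1 responded less in Lap2-depleted cells, by -1.81 on the log2 scale, Junb more, by 0.86, and Jund more, by 0.96. For Fosl1 and Jund the starved levels differed between the siRNAs (log2FC 1.62 and -0.91) and the stimulated levels did not pass the test (-0.19 and 0.047). For Junb the difference had opposite signs in 0.3% FBS (-0.57) and 15% FBS (0.29), and both passed. The cause was not tested for any of them.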

How the results depend on the processing

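Over the 7 members and 5 comparisons, 658 of 693 alternative values kept their direction and their side of the threshold, 21 passed the test where the reported value did not, 6 no longer passed it, and 8 changed sign. No called value changed sign. The counts of members called with serum and with Lap2 siRNA in 0.3% FBS stayed within 1.5 times of those reported. The number called higher with Lap2 siRNA in 15% FBS was 2 in place of 1 with total counts, with no filter and with the replicate block, and 1 to 2 when a library was left out. The number with a lower interaction was 2 in place of 1 with DESeq2, and 1 to 2 when a library was left out. Values that changed sign had not passed the test: with total counts Jund had -0.062 with serum under control siRNA, Fosl2 0.053 with Lap2 siRNA in 0.3% FBS and Tmpo -0.036 with serum under control siRNA. Leaving out a library, the interaction of Fos ran from -0.15 to 0.093, Fosl2 in starved cells from -0.075 to 0.018 and Jund in stimulated cells from -0.0060 to 0.13. Total counts moved the median log2FC of all genes by -0.21 and -0.23 for serum and by 0.11 for Lap2 siRNA in 0.3% FBS, and upper-quartile scaling moved it by -0.11 for serum with Lap2 siRNA. With total counts 1632 genes rose and 5847 fell with serum under control siRNA, in place of 2915 and 2597. The cause of these changes was not tested.

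The replicate numbers, assigned here by the order of the libraries in each group, showed no pairing. Deviations of same-numbered libraries correlated from -0.12 to 0.099 over 18 pairs, and those of others from -0.21 to 0.22 over 36. With the replicate number as a block, Fos in 15% FBS (0.20, adjusted p = 0.0281) and the interaction of Fosb (0.44, adjusted p = 0.0468) passed the test. Fos had 48 to 76 reads per starved library, which limits its comparison there.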
